A study of Mus musculus with 6 samples.

Results

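The expression changes that both Ikaros zinc finger mutants shared were measured by setting the 4 mutant libraries as 1 side against 2 wild-type (wt) libraries, which are all 6 libraries of the study. The mutant side held 2 libraries of the genotype Ikaros_ZnF1-/- (ZnF1 mutant) and 2 of Ikaros_ZnF4-/- (ZnF4 mutant). All 3 groups came from C57BL/6 mouse bone marrow that was transduced at day 0 with a retrovirus for the p185 form of the fusion kinase BCR-ABL and a yellow fluorescent protein, and all were collected after 14 days in culture. The labels call the cells transformed pro-B acute lymphoblastic leukaemia, number the replicates 1 and 2 in each group, and give neither a sort of the transduced cells nor what separated the replicates. The p-values therefore rest on the spread between these cultures only. In the main fit they use just the part of it that is left once an offset common to same-numbered libraries is removed. Polyadenylated RNA was sequenced, and the deposited values are RPKM, read counts scaled to transcript length and to the reads of the library. Of 22099 genes, 11345 had at least 1 RPKM in at least 2 libraries and were tested. At that limit, 145 genes whose second-highest value was 1.0 RPKM were kept and 118 at 0.9 RPKM were left out.

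Ikaros is the product of Ikzf1, a lymphoid transcription factor with zinc fingers and a tumour suppressor in BCR-ABL leukaemia. Its N-terminal fingers bind DNA and its C-terminal fingers pair the protein with itself and with related proteins, and it works partly through the NuRD chromatin remodelling complex. The middle fingers of the N-terminal group read the core of the binding sequence, while finger 1 and finger 4 flank them and alter which sites are bound. In B cell precursors Ikaros is known for its part in antigen receptor gene rearrangement, in the move from large cycling to small resting cells, and in turning down adhesion to stroma.

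The promoters of 4 genes are shown because the genes are near the top of the ranking used below, by the smallest difference from wt in any mutant library: S1pr3 and Rag1 (ranks 1 and 2 of the higher genes) and Camk2b and Epcam (ranks 1 and 3 of the lower genes). Each run is the 250 bases before the RefSeq gene start (build GRCm38.p6, read 5′ to 3′ on the gene's strand), and capitals mark TGGGAA, a core sequence bound by Ikaros, or its reverse complement TTCCCA. The windows lie at chr13:51408368-51408617 (plus strand), chr2:101649533-101649782 (minus strand), chr11:6065749-6065998 (minus strand) and chr17:87635729-87635978 (plus strand), in the same order.
S1pr3: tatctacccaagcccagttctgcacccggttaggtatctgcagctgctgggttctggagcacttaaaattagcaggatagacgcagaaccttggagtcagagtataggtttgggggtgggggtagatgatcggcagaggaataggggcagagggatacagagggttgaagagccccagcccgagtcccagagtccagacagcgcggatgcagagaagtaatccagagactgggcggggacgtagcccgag
Rag1: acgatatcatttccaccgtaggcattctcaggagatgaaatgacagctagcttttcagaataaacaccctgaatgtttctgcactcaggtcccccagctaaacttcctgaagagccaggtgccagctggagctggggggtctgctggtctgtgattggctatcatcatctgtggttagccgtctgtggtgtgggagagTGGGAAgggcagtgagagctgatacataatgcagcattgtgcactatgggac
Camk2b: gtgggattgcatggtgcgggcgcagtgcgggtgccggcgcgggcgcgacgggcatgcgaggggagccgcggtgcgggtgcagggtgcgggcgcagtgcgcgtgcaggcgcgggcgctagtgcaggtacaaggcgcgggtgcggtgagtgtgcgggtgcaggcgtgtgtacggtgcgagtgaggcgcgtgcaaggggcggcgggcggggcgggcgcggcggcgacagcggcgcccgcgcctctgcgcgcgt
Epcam: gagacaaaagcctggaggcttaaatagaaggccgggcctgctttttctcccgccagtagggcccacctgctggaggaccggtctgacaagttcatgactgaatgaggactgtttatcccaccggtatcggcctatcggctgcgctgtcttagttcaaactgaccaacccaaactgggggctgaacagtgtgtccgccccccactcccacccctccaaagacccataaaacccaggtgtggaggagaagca
The Rag1 window held 1 match, starting at position -52, and the other 3 held 0. The windows of Tcf7l1 and Tmem59l, rank 4 of the higher and of the lower genes, held 1 match each, at positions -55 and -43. Among genes higher in both mutants, 89 of 414 such windows held the letters on either strand (21.5%, from 313 of 407 genes matched by symbol). Among genes lower in both it was 50 of 230 windows (21.7%, 163 of 197 genes). The share was 20.3% over the windows of all genes tested and 21.6% over all 32851 windows, so the letters were about as frequent in the changed genes as elsewhere.

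The libraries carried the markers of the labelled cell type. Ebf1 was at 163.4 to 211.1 RPKM and Pax5 at 126.0 to 184.5 in all 6 libraries, and the 10 pro-B cell markers summed to 1997 to 3083 RPKM with no separation of the groups. Markers of other cells were present and uneven. The 22 monocyte and macrophage markers summed to 455.7 and 514.2 RPKM in wt, 1240 and 1379 in the ZnF1 mutant and 458.4 and 515.5 in the ZnF4 mutant, with none at 0. The 22 stromal and endothelial markers summed to 103.6 and 106.7 RPKM in wt, 387.7 and 216.8 in the ZnF1 mutant and 96.4 and 96.6 in the ZnF4 mutant. The 17 granulocyte markers were high in 2 libraries, wt replicate 1 (551.2 RPKM) and ZnF1 mutant replicate 2 (1709 RPKM), and summed to 10.7 to 62.8 RPKM in the other 4. The 19 T and NK cell markers summed to 41.8 to 76.1 RPKM, with 6 to 11 of them at 0 in a library. Of these, Cd3e and Ncr1 were at 0 in every library. In bulk samples, fewer cells of a type and less RNA per cell cannot be told apart.

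Both mutants together differed from wt in 1195 of 11345 genes (10.5%), of which 758 were higher (6.68%) and 437 lower (3.85%), by limma on log2(RPKM + 1) with the replicate number as a block and Benjamini-Hochberg adjusted p under 0.05. A change is called shared here when all 4 mutant libraries also lay on the same side of both wt libraries. This held for 407 higher genes (3.59%) and 197 lower genes (1.74%), or 604 in all (5.32%). A shared change need not pass the test in each mutant alone. Whatever the test, 686 genes (6.05%) had all 4 mutant libraries above both wt libraries and 359 (3.16%) had them below, together 1045 (9.21%). With 4 libraries against 2, some genes take this order without any difference between the groups. Lack of overlap alone is therefore not evidence that a gene changed. The shared higher genes were low in wt, with a median of 2.5 RPKM against 11.75 for all genes tested, and reached a median of 6.0 RPKM in the mutants. The filter admits a gene through mutant libraries alone, and such a gene can hardly come out lower. The low wt median and the excess of higher over lower genes are therefore partly set by the filter and the selection. The shared lower genes went from a median of 13.15 RPKM in wt to 6.55 in the mutants. A change of at least 2-fold on the RPKM + 1 scale in every same-numbered pair was seen in 32 of the higher and 24 of the lower genes. The counts changed with the settings. Without the block, limma called 29 genes higher (0.256%) and 19 lower (0.167%), of which 27 and 18 were shared, and 1118 genes had an unadjusted p under 0.05 against 2811 with it. Shared higher and lower genes numbered 1 (S1pr3) and 0 with the 4 mutant libraries as 1 group, and 106 and 63 without the filter on low values. They numbered 23 and 16 when wt replicate 1 was left out, 20 and 12 when wt replicate 2 was, 250 and 179 with ZnF1 mutant replicate 1 left out, 300 and 128 without ZnF1 mutant replicate 2, 151 and 80 without ZnF4 mutant replicate 1, and 162 and 82 without ZnF4 mutant replicate 2.

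**Figure D1:**
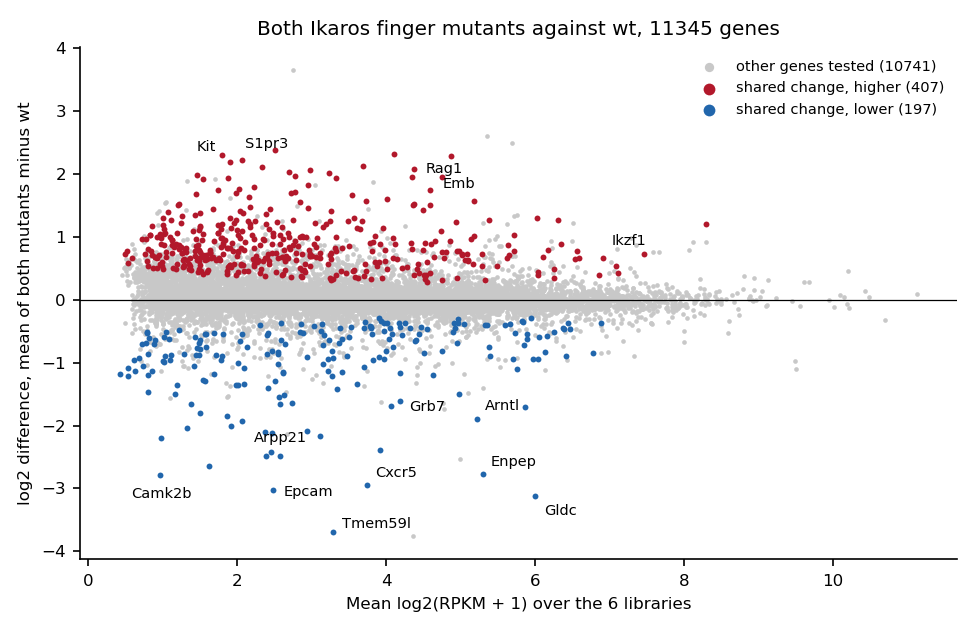
Difference between the mean of both mutants and wt (vertical axis, log2 of RPKM + 1) against mean level over the 6 libraries (horizontal axis, log2 of RPKM + 1), 1 point per gene tested. The 407 shared higher genes (red) lie mostly at low mean levels, the 197 shared lower genes (blue) reach further from 0, to a log2 difference of -3.70 for Tmem59l, and other genes are grey.

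Genes were ranked by the smallest of their 4 differences from the same-numbered wt library, and the first 12 in each direction are described. The 12 higher genes included 2 sphingosine 1-phosphate receptors and 2 enzymes that act on membrane lipids. S1pr3, a receptor for sphingosine 1-phosphate, was at 1.1 and 0.7 RPKM in wt, 8.0 and 6.5 in the ZnF1 mutant and 8.1 and 6.3 in the ZnF4 mutant. All 4 mutant libraries lay far above both wt libraries and the mutants were alike, with rises of 2.12 and 2.11 (log2, SE 0.08 each) for ZnF1 and ZnF4. The difference between the mutants was -0.01 (SE 0.08, limma adjusted p = 0.92). S1pr1, the receptor that guides lymphocytes out of tissue, was at 3.0 and 3.2 RPKM in wt, 10.8 and 14.1 in the ZnF1 mutant and 22.6 and 13.4 in the ZnF4 mutant, a joint rise of 1.94 (SE 0.22, limma adjusted p = 0.0108). Ppap2b, a phosphatase of lipid phosphates outside the cell, rose from 2.8 and 2.6 RPKM to 8.2 and 8.1 in the ZnF1 mutant and 26.0 and 20.9 in the ZnF4 mutant. Smpdl3b, a membrane phosphodiesterase of the sphingomyelinase family, was at 1.1 and 0.7 RPKM in wt, 4.1 and 3.2 in the ZnF1 mutant and 23.1 and 17.3 in the ZnF4 mutant. For Ppap2b and Smpdl3b both mutants were above wt, but the ZnF4 mutant was above the ZnF1 mutant by 1.41 and 2.18 (log2, limma adjusted p = 0.0014 and 0.000676). Without the block the calls for S1pr3, Ppap2b and Smpdl3b held (limma adjusted p = 0.0251, 0.0227 and 0.0235) and that for S1pr1 was lost (0.059).

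Rag1 rose in every mutant library. RAG1 is the recombinase subunit that, with RAG2, cuts antigen receptor genes. Rag1 was at 5.4 and 8.7 RPKM in wt, 29.2 and 35.9 in the ZnF1 mutant and 31.6 and 33.3 in the ZnF4 mutant, a joint rise of 2.08 (log2, SE 0.12, limma adjusted p = 0.00302, or 0.0369 without the block) with no detectable difference between the mutants (0.00, SE 0.14). Rag2 was at 4.4 and 8.6 RPKM in wt, 12.3 and 17.2 in the ZnF1 mutant and 14.1 and 16.1 in the ZnF4 mutant, a smaller joint rise of 1.14 (SE 0.14, limma adjusted p = 0.0126, or 0.212 without the block). Of 15 V(D)J recombination genes tested, these 2 were shared higher and 2 were shared lower (26.7%, against 5.32% of all genes), and the median difference was -0.05 against 0.01 for all genes. The lower ones were Lig4, the ligase of end joining, at 9.6 and 11.8 RPKM in wt, 6.6 and 7.6 in the ZnF1 mutant and 3.6 and 3.9 in the ZnF4 mutant, and Xrcc6, which encodes the Ku70 end-binding protein, at 85.0 to 86.8 RPKM in wt and 47.8 to 76.1 in the mutants. Without the block both lost their call (limma adjusted p = 0.0932 and 0.227). Dntt, the polymerase that adds bases at the joints, was at 189.2 and 161.4 RPKM in wt, 205.7 and 129.2 in the ZnF1 mutant and 79.4 and 40.6 in the ZnF4 mutant. It fell by 0.85 for both mutants together and passed the test (limma adjusted p = 0.0323), but the ZnF1 mutant overlapped wt. The call was lost without the block (0.507) and whichever library was left out (0.0573 to 0.218, with differences of -1.14 to -0.56).

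The roles of the other 7 of the 12 higher genes were mixed. Emb, an immunoglobulin-family surface glycoprotein, was at 9.8 RPKM in both wt libraries, 27.6 and 29.3 in the ZnF1 mutant and 42.1 and 44.2 in the ZnF4 mutant. Replicates were tight and the 3 groups did not overlap, with a joint rise of 1.74 (log2, SE 0.06, limma adjusted p = 0.00127). Tcf7l1, a DNA-binding factor of the Wnt pathway, was at 5.2 and 2.8 RPKM in wt, 28.5 and 17.3 in the ZnF1 mutant and 28.6 and 11.5 in the ZnF4 mutant. Its replicate 2 libraries were lower in each group, and its call was lost without the block (limma adjusted p = 0.146). St3gal6, a sialyltransferase of cell surface glycans, showed the opposite order of replicates, with 7.0 and 13.9 RPKM in wt, 27.4 and 39.8 in the ZnF1 mutant and 44.1 and 59.8 in the ZnF4 mutant. Olfm1, a secreted glycoprotein, was at 2.2 and 1.0 RPKM in wt, 10 and 6.1 in the ZnF1 mutant and 11.0 and 11.3 in the ZnF4 mutant. Clcf1, a cytokine of the interleukin 6 family, was at 0.9 and 0.7 RPKM in wt, 5.1 and 3.7 in the ZnF1 mutant and 6.4 and 5.4 in the ZnF4 mutant. Prss12, a secreted serine protease, was at 2.2 and 2.0 RPKM in wt, 7.2 and 6.2 in the ZnF1 mutant and 13.9 and 11.4 in the ZnF4 mutant. Sh3bgrl2 was at 5.8 and 5.1 RPKM in wt and 15.8 to 21.2 in the mutants. The calls for Emb, Clcf1, Prss12 and Sh3bgrl2 held without the block (limma adjusted p of 0.0227 to 0.046), and those for Olfm1 and St3gal6 did not (0.0676 and 0.0932).

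**Figure D2:**
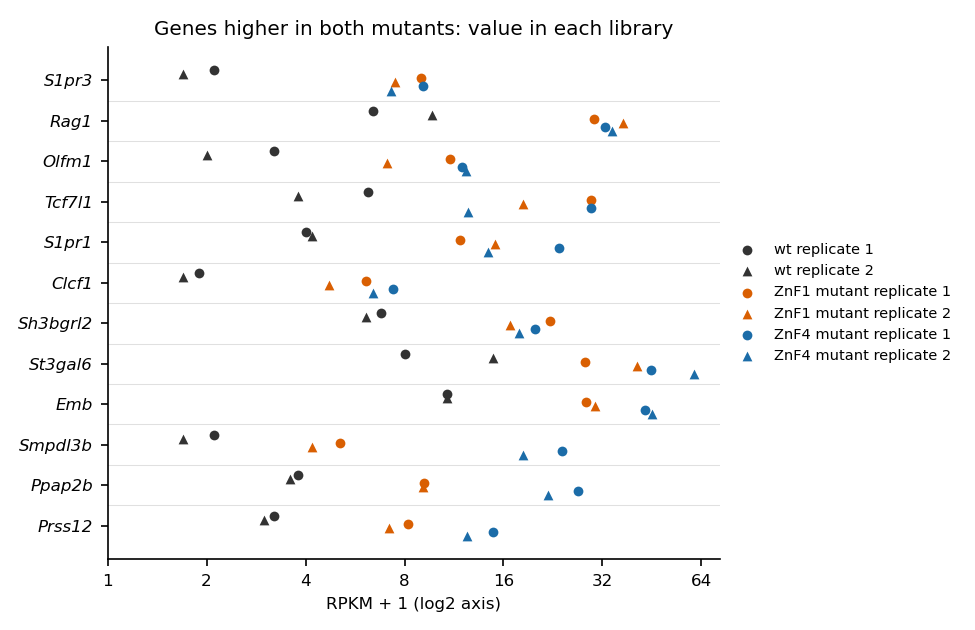
Level of the 12 higher genes in each of the 6 libraries (horizontal axis, RPKM + 1 on a log2 scale), with circles for replicate 1, triangles for replicate 2 and colours for the 3 groups. In each row the 4 mutant points lie to the right of both wt points, and for Smpdl3b and Ppap2b the ZnF4 mutant points stand apart from the ZnF1 mutant points.

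The 12 lower genes included a kinase subunit and 3 regulators of receptor signalling. Camk2b, the beta subunit of calcium/calmodulin-dependent kinase II, was at 6.9 and 5.3 RPKM in wt, 0.1 and 0.0 in the ZnF1 mutant and 0.0 in both ZnF4 mutant libraries. It was thus listed at 0 in 3 of the 4 mutant libraries, and its difference of -2.78 on the log2(RPKM + 1) scale (SE 0.12, limma adjusted p = 0.00154, or 0.0193 without the block) is set by the added 1 RPKM. Lat, a membrane adaptor of antigen receptor signalling best known from T cells, was at 26.2 and 12.1 RPKM in wt, 2.4 and 1.0 in the ZnF1 mutant and 4.2 and 2.6 in the ZnF4 mutant. Ubash3a, a phosphatase-like suppressor of the same pathway, was at 11.7 and 7.6 RPKM in wt, 1.6 and 1.3 in the ZnF1 mutant and 0.2 and 0.1 in the ZnF4 mutant. Lat fell further in the ZnF1 mutant and Ubash3a further in the ZnF4 mutant, with ZnF4 minus ZnF1 differences of 0.73 and -1.09 (log2, limma adjusted p = 0.0171 and 0.00621). Grb7, an SH2 domain adaptor, was at 81.1 and 47.2 RPKM in wt, 29.1 and 18.6 in the ZnF1 mutant and 22.9 and 16.6 in the ZnF4 mutant. Its replicate 2 libraries were lower in every group, and its joint difference of -1.50 (SE 0.09) had a limma adjusted p of 0.00302 with the block and 0.146 without it. Without the block the call for Ubash3a held (limma adjusted p = 0.0227) and that for Lat did not (0.0877).

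The other 8 lower genes had various roles. Epcam, a homophilic adhesion molecule, was at 21.6 and 21.4 RPKM in wt, 4.4 and 1.0 in the ZnF1 mutant and 1.2 and 1.5 in the ZnF4 mutant. The wt libraries were alike and every mutant library was far below them, but the 2 ZnF1 mutant libraries differed, and the joint difference of -3.02 (log2, SE 0.35) had a limma adjusted p of 0.0109 with the block and 0.0676 without. Arntl, which encodes the clock transcription factor BMAL1, was at 83.6 and 92.6 RPKM in wt, 28.1 and 31.0 in the ZnF1 mutant and 16.1 and 20 in the ZnF4 mutant. Its 3 groups did not overlap, and the joint difference was -1.89 (SE 0.07, limma adjusted p = 0.00127, or 0.0227 without the block). Arpp21, a cyclic AMP regulated phosphoprotein that binds RNA, was at 14.3 and 16.8 RPKM in wt, 2.3 and 2.2 in the ZnF1 mutant and 2.2 and 1.2 in the ZnF4 mutant. Sytl2, an effector of Rab27 in vesicle transport, was at 13.9 and 17.9 RPKM in wt, 5.2 and 4.1 in the ZnF1 mutant and 0.6 and 0.9 in the ZnF4 mutant. Both kept their call without the block (limma adjusted p = 0.0227 for each). Tmem59l differed within wt, at 77.4 and 36.2 RPKM, and was at 18.0 and 5.6 in the ZnF1 mutant and 0.7 and 0.4 in the ZnF4 mutant. Pla2g2f, a secreted phospholipase, was at 18.2 and 9.5 RPKM in wt and 2.6 to 6.5 in the mutants. Als2cl was at 10.5 and 7.0 RPKM in wt and 0.7 to 2.4 in the mutants, and the melanocortin receptor Mc1r at 4.8 and 6.3 in wt and 0.3 to 2.1 in the mutants. The calls for Tmem59l, Pla2g2f, Als2cl and Mc1r were lost without the block (limma adjusted p of 0.0592 to 0.184).

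**Figure D3:**
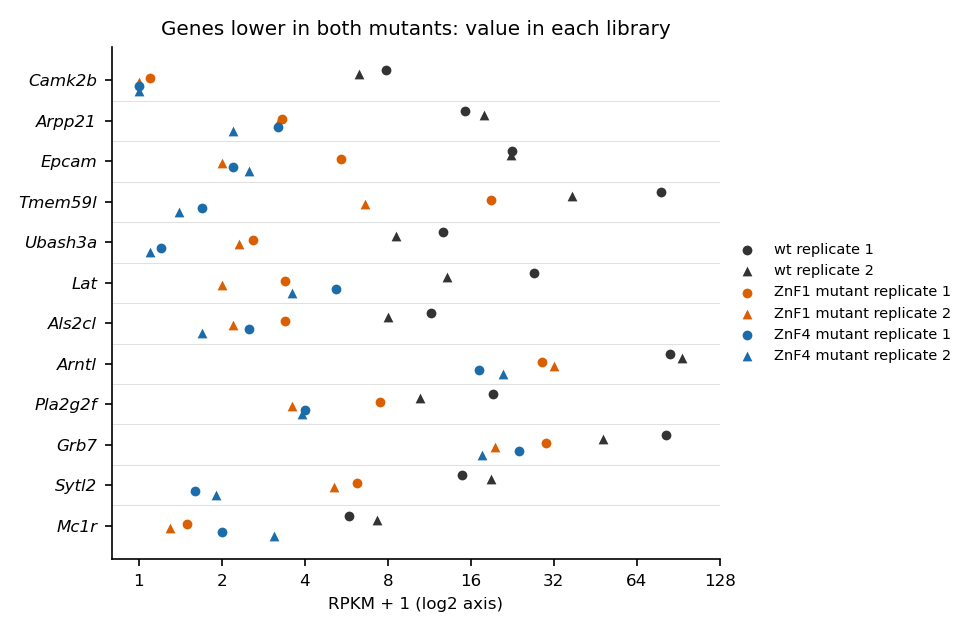
Level of the 12 lower genes in each of the 6 libraries (horizontal axis, RPKM + 1 on a log2 scale), with circles for replicate 1, triangles for replicate 2 and colours for the 3 groups. The 4 mutant points lie to the left of both wt points in each row, and the Camk2b points of both mutants sit at the left edge, where RPKM is 0 to 0.1.

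The size of a shared change often differed between the mutants. Among the 604 shared genes, 321 had a limma adjusted p under 0.05 for ZnF4 mutant against ZnF1 mutant, against 3979 of all 11345 genes (35.1%). The shared genes were picked by the same fit, and its estimate of each gene's spread enters both tests. Their larger share is therefore not a separate result. Of the 407 higher genes, 136 were further from wt in the ZnF4 mutant and 82 in the ZnF1 mutant by this test. Of the 197 lower genes, 91 were further from wt in the ZnF4 mutant and 12 in the ZnF1 mutant. The median change of the lower genes was -0.55 for ZnF1 and -0.98 for ZnF4, and that of the higher genes 0.72 and 0.78. S1pr3, Rag1, Sh3bgrl2, Camk2b and Arpp21 had ZnF4 minus ZnF1 differences of -0.29 to 0.00, and none of these 5 passed the test. Among all 24 described genes, 13 did, and 11 of these 13 were further from wt in the ZnF4 mutant, with Lat and Mc1r further in the ZnF1 mutant.

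**Figure D4:**
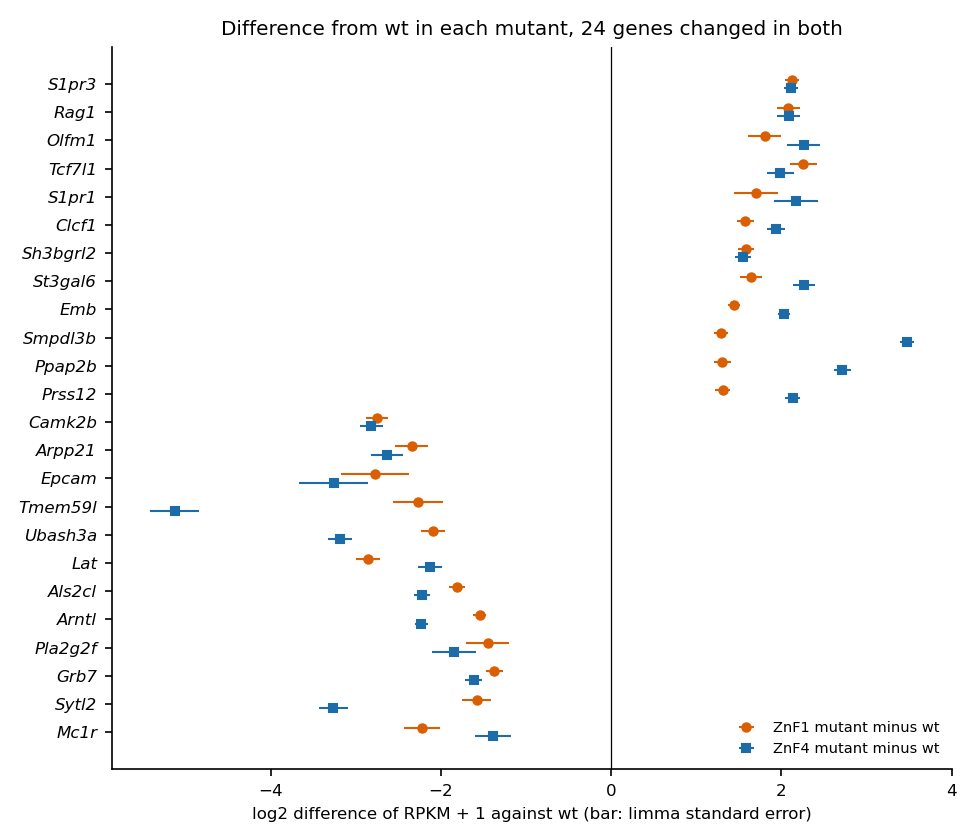
Difference from wt in the ZnF1 mutant (orange circles) and the ZnF4 mutant (blue squares) for the 24 described genes (horizontal axis, log2 of RPKM + 1, bars are limma standard errors). S1pr3, Rag1 and Camk2b have nearly the same value in both mutants, whereas Tmem59l lies at -2.27 for ZnF1 and -5.13 for ZnF4.

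Ikzf1 itself was at 89.2 and 85.9 RPKM in wt, 101.5 and 116.7 in the ZnF1 mutant and 188.2 and 170.2 in the ZnF4 mutant. The alleles lack single fingers and not the whole gene, so this level does not check the labels. The joint rise of 0.67 (log2, SE 0.09) had a limma adjusted p of 0.0163 with the block and 0.149 without it. The ZnF4 mutant carried most of it, at 1.02 against 0.31 in the ZnF1 mutant (limma adjusted p = 0.00489 and 0.125), and the difference between the mutants was 0.71 (limma adjusted p = 0.00839). Of the other 3 tested members of the family, Ikzf4 was called higher but overlapped wt. Of 13 NuRD subunits 0 were called by limma and 1 had an unadjusted p under 0.05 (0 without the block), with a median difference of -0.06.

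Shared changes of B lineage genes were 2 falls, and there was none among pre-B cell receptor genes. Of 20 B lineage identity genes, 0 were shared higher and 2 shared lower (10%, against 5.32% of all genes), with a median difference of -0.02. Ets1, a transcription factor of B cell precursors, was at 84.6 and 74.5 RPKM in wt, 53.3 and 44.8 in the ZnF1 mutant and 51.0 and 43.2 in the ZnF4 mutant, a joint difference of -0.72 (log2, SE 0.06, limma adjusted p = 0.00543, or 0.16 without the block). Cd72, an inhibitory co-receptor, was at 40.1 and 43.0 RPKM in wt, 34.2 and 29.9 in the ZnF1 mutant and 21.6 and 18.8 in the ZnF4 mutant (limma adjusted p = 0.0131, or 0.139 without the block). Of 19 genes of pre-B cell receptor signalling, 0 were shared in either direction by this limma fit, although 4 were called. Blk, a Src family kinase, was at 66.2 and 54.1 RPKM in wt, 57.5 and 47.2 in the ZnF1 mutant and 8.0 and 3.4 in the ZnF4 mutant, so its average over both mutants reflected the ZnF4 mutant. Vpreb2, a surrogate light chain gene, was higher than wt in each same-numbered pair by 0.34 to 0.52, but its replicate 2 libraries were lower in all 3 groups and the groups overlapped.

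Progenitor and later-stage genes moved in both directions. Of 12 progenitor genes tested, 1 was shared higher and 2 shared lower (25.0%, against 5.32% of all genes). Kit, the stem cell factor receptor, was at 0.4 and 0.3 RPKM in wt, 1.0 and 1.6 in the ZnF1 mutant and 16.2 and 15.4 in the ZnF4 mutant, so its shared rise was 0.76 for ZnF1 and 3.64 for ZnF4 (limma adjusted p = 0.0362 and 0.000747). Cd93, an early B lineage surface marker, was at 74.9 and 82.0 RPKM in wt and 43.9 to 58.4 in the mutants. Myb, a transcription factor of progenitors, was at 102.0 and 116.4 RPKM in wt and 76.6 to 80.8 in the mutants, a joint difference of -0.47 (SE 0.07) that was alike in both (-0.48 and -0.45). Of 18 later B cell genes, Cd180 and S1pr1 were shared higher and Cxcr5 shared lower (16.7%). Cxcr5, the receptor that leads B cells into follicles, was at 57.5 and 45.4 RPKM in wt, 24 and 11.2 in the ZnF1 mutant and 1.5 and 1.7 in the ZnF4 mutant. The calls for Kit and Cxcr5 held without the block (limma adjusted p = 0.0227 and 0.0425), and those for Cd93, Myb and Cd180 did not (0.138, 0.275 and 0.0732).

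Inhibitory receptors and adhesion genes had larger shares of shared rises than all genes tested (3.59%), as counts of lists that were chosen with earlier results of these data known. Of 15 inhibitory receptor and phosphatase genes, 4 were shared higher and 1 (Cd72) shared lower, with a median difference of 0.45. Fcgr2b, the inhibitory Fc receptor of B cells and macrophages, was at 16.9 and 15.6 RPKM in wt, 53.7 and 57.9 in the ZnF1 mutant and 27.9 and 28.1 in the ZnF4 mutant, a joint rise of 1.24 (log2, SE 0.07, limma adjusted p = 0.00302, or 0.0339 without the block). Ptpn6, the SHP-1 phosphatase that such receptors recruit, was at 76.8 and 63.5 RPKM in wt, 111.2 and 95.5 in the ZnF1 mutant and 137.8 and 102.8 in the ZnF4 mutant. Ceacam1 was at 4.8 and 4.6 RPKM in wt and 6.5 to 11.5 in the mutants. Of 34 integrin and focal adhesion genes, 8 were shared higher and 1 (Nedd9) shared lower, and the list's median was 0.59 for ZnF1 and 0.03 for ZnF4. Ptk2, the focal adhesion kinase, was at 1.6 and 1.9 RPKM in wt, 4.9 and 6.0 in the ZnF1 mutant and 15.0 and 19.6 in the ZnF4 mutant (joint rise 1.98, SE 0.08, limma adjusted p = 0.00144, or 0.0251 without the block). Ctnnd1, a catenin of cadherin junctions, was at 13.8 and 19.7 RPKM in wt, 32.5 and 32.9 in the ZnF1 mutant and 84.8 and 74.8 in the ZnF4 mutant. Itgal, the alpha chain of the integrin LFA-1, was at 20.4 and 15.7 RPKM in wt, 45.3 and 31.6 in the ZnF1 mutant and 29.1 and 22.5 in the ZnF4 mutant. Without the block Ptpn6, Ceacam1, Ctnnd1 and Itgal lost their call (limma adjusted p of 0.052 to 0.288). Macrophage and stromal markers moved with the ZnF1 mutant side of these lists. The 21 tested macrophage markers had a median of 1.32 for ZnF1 and 0.18 for ZnF4, with 6 of them above both wt libraries in all 4 mutant libraries, and the 12 stromal and endothelial markers had 1.25 and -0.05. Their part in these rises was not tested in either mutant.

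The macrophage and endothelial marker lists held shared rises of their own. Of 21 macrophage markers tested, 6 were shared higher (28.6%, against 3.59% of all genes) and 0 lower. By limma, 16 were lower in the ZnF4 than in the ZnF1 mutant, against 2176 of all 11345 genes. Csf1r, the macrophage growth factor receptor, was at 13.5 and 12.6 RPKM in wt, 36.9 and 32.9 in the ZnF1 mutant and 17.5 and 14.2 in the ZnF4 mutant, where its own difference of 0.26 did not pass the test (limma adjusted p = 0.0986). Of 12 stromal and endothelial markers, Fn1, Cdh5 and Kdr were shared higher. Kdr, an endothelial growth factor receptor, was at 0.1 RPKM in both wt libraries, 1.5 and 1.6 in the ZnF1 mutant and 0.7 and 0.9 in the ZnF4 mutant. Cdh5, the endothelial cadherin, was listed at 0.0 in both wt libraries and 0.1 in both ZnF1 mutant libraries, against 2.1 and 1.3 in the ZnF4 mutant, so its side of wt in the ZnF1 mutant rested on the last decimal of the table. Fn1, the matrix protein fibronectin, was at 16.2 and 30.4 RPKM in wt, 76.6 and 69.5 in the ZnF1 mutant and 35.3 and 48.2 in the ZnF4 mutant. Without the block none of the 9 shared marker genes of these lists kept its call by limma. Of the tested markers of granulocytes (12), erythroid cells and megakaryocytes (5), mast cells (4) and plasma cells (4), 0 were shared, and of 6 T and NK cell markers 1 was (Cd5, lower, at 1.8 and 1.5 RPKM in wt and 0.5 to 1.1 in the mutants). Granulocyte markers were high in 1 library of each side. The wt libraries also differed in summed mast cell (29.3 and 0.5 RPKM) and erythroid and megakaryocyte markers (67.9 and 20.1). For these lists overlap was thus nearly set in advance, and the 0 is not a result about the mutants.

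Shared members of the signalling lists were counted against the 5.32% of all genes. Of 19 ERK feedback and target genes, 17 had a positive difference, against 6065 of all 11345 genes, and 2 were shared higher (10.5%). The list median was 0.60 for ZnF1 and 0.23 for ZnF4. Spry1, Spred1, Etv5 and Phlda1 were called higher but overlapped wt. Ccnd1, the cyclin that drives entry into the cell cycle, was at 9.5 and 8.9 RPKM in wt, 31.5 and 17.6 in the ZnF1 mutant and 38.7 and 29.1 in the ZnF4 mutant, and Dusp4, a phosphatase of ERK, at 1.6 and 0.9 in wt, 3.2 and 2.1 in the ZnF1 mutant and 10.6 and 6.5 in the ZnF4 mutant. Both lost their call without the block (limma adjusted p = 0.104 and 0.127). Of 7 Notch genes 2 were shared (28.6%), but 5 had a negative difference and the list median was -0.14. Notch1 and Heyl were called lower and overlapped wt. Notch2 was shared higher, from 3.7 and 3.2 RPKM in wt to 6.4 and 7.6 in the ZnF1 mutant and 8.6 and 7.7 in the ZnF4 mutant, and so was Tcf7, a transcription factor downstream of Notch in T cells, from 2.2 and 1.5 RPKM to 2.3 to 5.5. Without the block both lost their call (limma adjusted p = 0.0828 and 0.315). Among 11 STAT5 targets 0 were shared, among 22 p53 targets 1 (Perp, lower, 4.55%), among 13 BCL2 family genes 1 (Bid, lower, 7.69%) and among 24 interferon response genes 1 (Ifih1, higher, 4.17%). Several of their members were called on the average of both mutants, overlapped wt, and differed between the mutants. Btg2, a p53 target, was at 15.2 and 12.4 RPKM in wt, 45.6 and 43.7 in the ZnF1 mutant and 16.6 and 10.7 in the ZnF4 mutant. Bcl2l11, which encodes the death-promoting protein BIM, was at 37.0 and 28.1 RPKM in wt, 76.4 and 58.7 in the ZnF1 mutant and 35.2 and 25.3 in the ZnF4 mutant.

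The medians of the DNA replication, mitosis and MYC lists lay on opposite sides of wt in the mutants, and these lists had 0 shared changes, against 5.32% of all genes. Of 45 DNA replication genes 0 were called for both mutants together by limma (3 at an unadjusted p under 0.05, 0 without the block), and the list median was -0.13 for ZnF1 and 0.26 for ZnF4, with 31 genes higher in the ZnF4 than in the ZnF1 mutant by limma, against 1803 of all 11345 genes. Of 41 mitosis genes 1 was called (Cdc25b, lower, overlapping wt), the medians were -0.20 and 0.18, and 33 were higher in the ZnF4 than in the ZnF1 mutant. Of 30 MYC and ribosome biogenesis genes 0 were called (2 at an unadjusted p under 0.05, 0 without the block), and 19 were higher in the ZnF4 mutant. Of 21 glycolysis genes, 2 were shared lower (9.52%), and of 14 cyclins and cell cycle inhibitors 1 was shared higher (Ccnd1, 7.14%). Hk1, a hexokinase, was at 42.3 and 34.4 RPKM in wt, 31.5 and 23.7 in the ZnF1 mutant and 18.3 and 15.2 in the ZnF4 mutant, and Slc16a1, the lactate transporter MCT1, at 83.4 and 67.5 in wt and 45.6 to 58.1 in the mutants. Both lost their call without the block (limma adjusted p = 0.181 and 0.325).

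**Figure D5:**
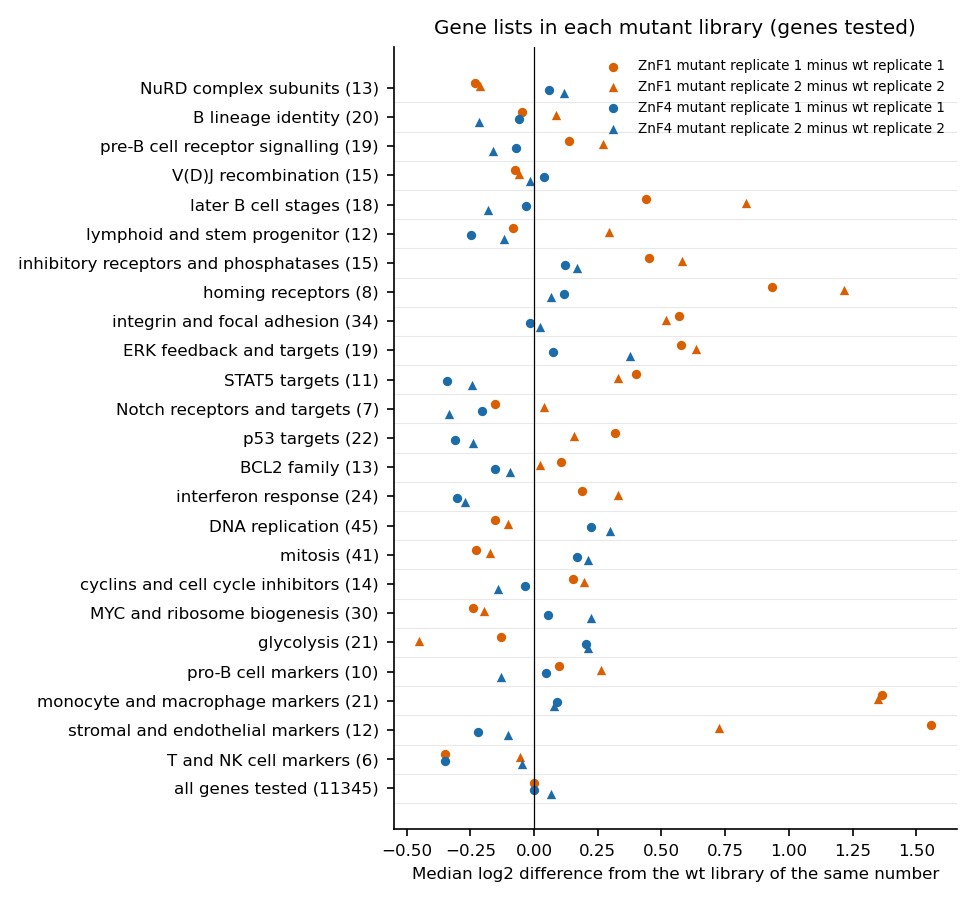
Median difference of gene lists and of all genes tested from the wt library of the same replicate number (horizontal axis, log2 of RPKM + 1). There is 1 point per mutant library, with the number of genes tested in brackets. The Ikaros family list and the granulocyte, erythroid and megakaryocyte, mast cell and basophil, and plasma cell marker lists are not drawn. The DNA replication, mitosis and MYC points of the ZnF1 mutant lie left of 0 and those of the ZnF4 mutant right of it, and the macrophage marker points of the ZnF1 mutant lie at 1.37 and 1.35 against 0.09 and 0.08 for the ZnF4 mutant.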

How the data were processed

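Polyadenylated RNA of 6 cultures was sequenced. The authors deposited RPKM per RefSeq transcript, written to 1 decimal, per the file headers. TopHat, bedtools and build mm9 are named, without versions, per the submitters' processing notes. Strand use and the counting of reads shared by transcripts or near-identical copies were not given in the sources used here, so levels of overlapping or duplicated genes are uncertain. Rounding hides the step of 1 read: depth is unknown and no counting interval is given. Summed RPKM was 287007 to 345766 per library, 10582 to 11119 genes reached 1 RPKM, and the 10 most abundant genes took 4.15% to 5.42%.

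The 26531 rows with a gene were summed to 22099 genes (3305 with several rows; 39 of 40 symbols turned into numbers by a spreadsheet were restored; 1 row without a gene was left out). limma 3.58.1 (R 4.3.3) with an intensity trend was fitted two-sided to log2(RPKM + 1), a scale that understates changes of low genes, with 3 group means and a block for the replicate number, leaving 2 residual degrees of freedom beside 3.06 from the prior. The contrast was the mean of both mutant groups minus wt, and the same fit gave each mutant against wt, which share the wt libraries, and ZnF4 mutant against ZnF1 mutant. The block comes from the definition of the comparison, which pairs libraries by replicate number. The labels do not say what a number shares, but libraries with the same number deviated together from their group means, with correlations over genes of 0.5, 0.754 and 0.715 for the 3 pairs of groups. On simulated data for this contrast (11345 genes, 20 runs), 95.1% of 2-fold and 99.6% of 4-fold changes were recovered and 3.9% of calls were false. The simulation gave both mutants the same shift, changed only genes above a minimum mean level, and drew normal noise with the fitted spread. An offset by replicate number was built in, as the fit assumes. The recovery and false call rates therefore describe the simulated data only and are not error rates of the real calls. In the real data the shared higher genes had a wt median of 2.5 RPKM, and 321 of 604 shared genes differed between the mutants by limma. Shared higher and lower genes fell from 407 and 197 to 27 and 18 without the block.

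Named genes were the first 12 shared changes in each direction by the smallest of 4 pair differences, among genes with a symbol that is not an unnamed gene model and a mean of at least 5 RPKM on the higher side, plus up to 4 members of each of 29 gene lists with the lowest p, shared changes of the Ikaros, B lineage, pre-B cell receptor, V(D)J and progenitor lists, and defining markers. The comparison, the lists and the rule were chosen with earlier results of these data known. Lists are described by counts and medians without a set test. Alternatives were no block, another pseudocount, no filter or a stricter one, rescaled libraries, the highest row per symbol, no trend, the mutants as 1 group, and leaving out libraries. Figures were drawn with matplotlib 3.10.9.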

Additional observations from a re-analysis of the deposited data

Results flagged for a closer look

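Of the 85 named genes, 59 had a different effect in the 2 mutants by limma (adjusted p under 0.05 for ZnF4 mutant minus ZnF1 mutant, with the replicate block). Among all genes tested, 3979 of 11345 (35.1%) did. The named genes were picked by their results in the same fit, so the counts are not a test of these genes as a set. The values below are the ZnF4 mutant minus ZnF1 mutant difference in log2(RPKM + 1), and no explanation is given.

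Among shared rises that were larger in the ZnF4 mutant, the difference was 2.88 for Kit, 2.18 for Smpdl3b, 1.50 for Ptk2, 1.41 for Ppap2b, 1.37 for Dusp4, 1.28 for Cdh5, 1.26 for Ctnnd1 and 1.14 for Cd180. It was smaller, at 0.82 for Prss12, 0.71 for Ikzf1, 0.62 for St3gal6, 0.58 for Emb, 0.55 for Ifih1 and 0.36 for Clcf1. Among shared falls that were larger in the ZnF4 mutant, it was -2.86 for Tmem59l, -2.75 for Cxcr5, -1.69 for Sytl2, -1.09 for Ubash3a, -0.77 for Lig4, -0.69 for Arntl, -0.68 for Hk1, -0.64 for Cd72, -0.48 for Xrcc6, -0.47 for Bid, -0.41 for Als2cl and -0.33 for Cd93.

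Fewer shared changes were larger in the ZnF1 mutant. The falls were 0.83 for Mc1r and 0.73 for Lat, and the rises were -1.10 for Csf1r, -0.97 for Fcgr2b, -0.55 for Ceacam1, -0.55 for Itgal, -0.52 for Tcf7 and -0.50 for Kdr.

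The remaining genes were called for both mutants together, but their groups overlapped. Of those that were positive on average and higher in the ZnF1 than in the ZnF4 mutant, the difference was -1.73 for Fcer1g, -1.67 for Btg2, -1.51 for Cd4, -1.50 for Ccr7, -1.49 for Cd68, -1.38 for Il7r, -1.32 for Emr1, -1.18 for Plk2, -1.14 for Bcl2l11, -1.11 for Spry1, -0.92 for Bcl2l1 and -0.90 for Lyn. Of those that were negative on average and lower in the ZnF4 than in the ZnF1 mutant, it was -3.41 for Zbp1, -3.08 for Blk, -2.13 for Mycn, -2.08 for Ltb, -1.96 for Heyl, -1.50 for Dntt, -1.21 for Bcl2, -1.19 for Ddx58, -1.18 for Xbp1, -0.53 for Notch1 and -0.51 for Pou2af1. Thy1, at 12.9 and 9.9 RPKM in wt, 0.8 and 0.3 in the ZnF1 mutant and 14.3 and 10.2 in the ZnF4 mutant, had 3.10, and Ikzf4 had 0.95.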

How the results depend on the processing

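Depth is unknown and 2 cultures per group carry every call. The counts by limma, in the order called higher, called lower, shared higher, shared lower and shared with a ZnF4 against ZnF1 difference, were 758, 437, 407, 197 and 321. Without the replicate block, that is without the pairing by number, they were 29, 19, 27, 18 and 29, and 68 of the 85 named genes lost their call. Without a filter on low values (15211 genes tested) they were 138, 85, 106, 63 and 115, with 50 named genes losing their call, and with at least 5 RPKM in 2 libraries shared higher genes numbered 254. With the 4 mutant libraries as 1 group, where differences between the mutants count as spread, they were 1 (S1pr3), 0, 1 and 0, with 84 named genes losing their call and 758 genes at an unadjusted p under 0.05. Of the named genes, 66 and 69 lost their call when a wt replicate (1 or 2) was left out, 22 and 20 without a ZnF1 mutant replicate and 40 and 32 without a ZnF4 mutant replicate. Leaving out 1 library at a time, with its group's lone library assumed to vary like the others, gave 22 to 455, 12 to 241, 20 to 300, 12 to 179 and 24 to 248, lowest without a wt library. Without the 2 libraries high in granulocyte markers (wt replicate 1 and ZnF1 mutant replicate 2) and without the block, limma called 0, 0, 0, 0 and 0, with 809 genes at an unadjusted p under 0.05, and Notch1 turned to 0.02. No other named gene changed direction under these alternatives. Another pseudocount (0.1), rescaled libraries, the highest row per symbol and no trend kept every count within 1.5 times. Rescaling gave 691 called higher and 518 lower, 366 and 238 shared, and moved the median of all genes from 0.01 to -0.02. Except as given by the number of genes or libraries left, the cause was not tested.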

Other observations

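The genes below lie outside the lists and were picked after their values were seen, so their grouping is a description without a test. The p-values are limma's over all genes with the replicate block. Of genes of T cell antigen receptor signalling besides Lat and Ubash3a, Lcp2, Prkcq, Pag1, Lax1 and Dgka were lower in all 4 mutant libraries, in cells in which Cd3e was at 0. In the ZnF1 mutant alone, Prkcq, Lax1 and Dgka did not pass the test against wt (limma adjusted p = 0.0543, 0.118 and 0.131). Lcp2 and Pag1 did (0.0173 and 0.00595). Lcp2, the adaptor SLP-76, was at 12.8 and 13.6 RPKM in wt, 5.5 and 7.8 in the ZnF1 mutant and 5.5 and 5.4 in the ZnF4 mutant (joint difference -1.02, SE 0.11, adjusted p = 0.00989). Prkcq, protein kinase C theta, was at 22.2 and 22.9 RPKM in wt, 14.9 and 9.5 in the ZnF1 mutant and 1.0 and 1.3 in the ZnF4 mutant, and its call held without the block (limma adjusted p = 0.0318). Pag1, a membrane adaptor that recruits the kinase CSK, was at 61.8 and 54.8 RPKM in wt and 30.2 to 40.1 in the mutants. Lax1, another membrane adaptor, was at 39.8 and 35.0 RPKM in wt, 33.5 and 17.4 in the ZnF1 mutant and 5.7 and 4.9 in the ZnF4 mutant. Dgka, a diacylglycerol kinase, was at 97.0 and 94.4 RPKM in wt, 86.1 and 66.6 in the ZnF1 mutant and 31.6 and 32.3 in the ZnF4 mutant. Lcp2, Pag1, Lax1 and Dgka lost their call without the block (limma adjusted p of 0.0904 to 0.11). The adaptor Grap2, at 11.6 and 8.5 RPKM in wt and 4.9 to 8.8 in the mutants, overlapped wt and did not pass (adjusted p = 0.12).

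Some genes of the primary cilium and some plexins, the receptors of semaphorins, were higher. Evc was at 0.1 RPKM in both wt libraries, 0.3 and 0.4 in the ZnF1 mutant and 4.8 and 4.1 in the ZnF4 mutant, and Evc2 at 0.1, 0.6 and 0.5, and 2.4 and 2.2. Of 12 intraflagellar transport genes tested, Ift88 and Ift122 were shared higher and 0 lower, with a median of 0.09, and of 9 Bardet-Biedl genes Bbs7 and Ttc8 were shared higher, with a median of 0.30. Of 6 plexins, 3 were shared higher. Among all genes tested, 407 of 11345 (3.59%) were shared higher. The families are small and were picked after their values were seen, so their counts are not a result about the families. Plxnb2 was at 4.1 and 4.7 RPKM in wt, 13.3 and 10.8 in the ZnF1 mutant and 21.6 and 21.8 in the ZnF4 mutant (joint rise 1.67, SE 0.11, limma adjusted p = 0.00377, or 0.0251 without the block). The call for Evc also held without the block (0.0332), and those for Evc2, Ift88, Ift122, Bbs7, Ttc8, Plxna1 and Plxna2 were lost (limma adjusted p of 0.052 to 0.544).

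Partners of 2 of the lower genes differed among themselves. Beside Camk2b, the delta subunit Camk2d was at 123.2 and 133.3 RPKM in wt, 98.1 and 99.7 in the ZnF1 mutant and 45.5 and 49.4 in the ZnF4 mutant (limma adjusted p = 0.00409, or 0.0694 without the block), while Camk2g had a difference of 0.06 (SE 0.07). Beside Arntl, its partner Clock had a difference of 0.08 (SE 0.08), and the clock output genes Dbp, Nr1d1 and Nr1d2 had -0.17, -0.32 and -0.20 (limma adjusted p of 0.082 to 0.359).

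Enpep, an aminopeptidase of early B lineage cells, was among the shared genes furthest from wt by the mean of both mutants, at 136.7 and 144.0 RPKM in wt, 51.1 and 61.7 in the ZnF1 mutant and 7.0 and 6.0 in the ZnF4 mutant. Gldc, a mitochondrial glycine-cleaving enzyme, was at 307.1 and 236.9 RPKM in wt, 169.0 and 96.6 in the ZnF1 mutant and 7.4 and 5.8 in the ZnF4 mutant. Ly86, which pairs with the product of Cd180, was at 5.2 and 4.6 RPKM in wt, 13.0 and 13.7 in the ZnF1 mutant and 63.1 and 55.7 in the ZnF4 mutant. The calls for these 3 genes held without the block (limma adjusted p of 0.0193 to 0.0251).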
